A study of Mus musculus with 2 samples.

Results

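Complement is a set of plasma proteins and cell surface receptors that tag microbes and dying cells for uptake and can end in a pore in the target membrane. C1q, built from the chains of C1qa, C1qb and C1qc, starts the classical pathway on antibody or on apoptotic cells. C3 is the protein on which all activating routes meet, properdin (Cfp) stabilises the convertase that amplifies C3 cleavage, C6 is a subunit of the terminal pore, C3ar1 and C5ar1 are receptors for the small cleavage fragments, and Cr2 (CD21) binds C3 fragments on B cells and follicular dendritic cells. In the spleen, resident macrophages are known for making C1q, and marginal zone B cells for abundant Cr2.

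These 9 genes were followed across the cell classes of CD11c+ spleen cells, out of 27032 genes measured. The data were UMI counts (unique molecular identifiers, each standing for 1 captured mRNA molecule) of single splenic cells that had been enriched on CD11c beads from Wild-Type mice, with 2 samples, called replicate 1 and replicate 2. The mice of the study were adults of both sexes on the C57BL/6J background, and no treatment is named for these samples. The sources used here give neither the sex behind each sample nor whether the samples came from separate animals, so the p-values measure the spread between these 2 samples only. The study made the data to look at metallophilic marginal zone macrophages (Siglec1+) and Langerin+ type 1 conventional dendritic cells (cDC1s, Cd207+). After a filter on cells modelled on that of the study, 2928 of 3308 cells remained in replicate 1 and 2725 of 3085 in replicate 2, with median depths of 12220 and 11435 UMIs. No barcode was shared between the samples.

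Cells were sorted into 9 classes by UMI gates that use none of the 9 complement genes, each cell going to the first gate it met. A macrophage had at least 20 Vcam1 and 10 Slc40a1 UMIs. A mature dendritic cell (DC) had at least 2 Ccr7 and 1 Fscn1, a cDC1 at least 2 Clec9a and 1 Xcr1, and a plasmacytoid DC (pDC) at least 3 Siglech and 1 Ccr9. B cells had at least 3 Cd79a, T cells at least 2 Cd3e and NK cells at least 1 Ncr1. Of the rest, DCIR2 cDC2s had at least 2 Clec4a4 and CLEC10A cDC2s at least 2 UMIs of Clec10a plus Cd209a. In replicates 1 and 2 the classes held 293 and 126 macrophages, 684 and 571 cDC1s, 556 and 456 DCIR2 cDC2s, 484 and 408 CLEC10A cDC2s, 138 and 173 mature DCs, 65 and 172 B cells, 41 and 159 T cells, 38 and 36 NK cells, and 13 and 19 pDCs, and 616 and 605 cells met no gate. Macrophages made up 10.01% of the kept cells of replicate 1 and 4.62% of replicate 2, so levels are given within a class.

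Independent markers fitted most of these names. All 8 macrophage markers (Adgre1, Cd68, Mertk, Axl, Hmox1, Spic, Cd5l and Cd163) were highest in the macrophage class, as were all 5 B cell, 5 T cell and 5 NK cell markers and all 6 mature DC markers in theirs, and 5 of 6 cDC1 markers in cDC1s. The names of the other gates are less firm. Of the pDC markers 3 of 6 were highest in the pDC class, and 9 of its 13 and 12 of its 19 cells also met another gate. The cDC2 classes are called here by their gates, since 0 of 4 DCIR2 cDC2 markers were highest in the DCIR2 class and 1 of 4 CLEC10A cDC2 markers in the CLEC10A class. Of the DCIR2 cDC2s, 209 of 556 and 156 of 456 also met the CLEC10A gate, which came later. Itgax, which encodes CD11c, stood at 115 and 113 CPM (UMIs per 1000000 UMIs of the class) in macrophages and at 895 and 847 CPM in DCIR2 cDC2s. Haemoglobin and haem synthesis markers summed to 2364 and 657 CPM in macrophages, and their part in the results on macrophages was not tested.

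The 3 C1q genes lie side by side on the minus strand of chromosome 4, within 18.675 kb (chr4:136880129-136898803, GRCm38). The others are scattered: C3 at chr17:57203970-57228136, C6 at chr15:4727175-4814967, Cfp at chrX:20925454-20931555, C3ar1 at chr6:122847138-122856161, C5ar1 at chr7:16246743-16259540 and Cr2 at chr1:195136811-195176716. To show what lies upstream of the genes with the clearest class patterns, RefSeq promoters (250 bases before to 50 bases after the gene start, GRCm38.p6) are printed 5′ to 3′ on the strand of the gene. Capitals mark matches on either strand to GAGGAA, the core bound by PU.1 type ETS factors of myeloid cells or to the motif TGCTGA. The C1qb promoter is at chr4:136886151-136886450 (minus strand), that of C1qc at chr4:136892865-136893164 (minus strand), that of C6 at chr15:4726960-4727259 (plus strand), that of Cfp at chrX:20931506-20931805 (minus strand) and that of Cr2 at chr1:195176670-195176969 (minus strand).
C1qb: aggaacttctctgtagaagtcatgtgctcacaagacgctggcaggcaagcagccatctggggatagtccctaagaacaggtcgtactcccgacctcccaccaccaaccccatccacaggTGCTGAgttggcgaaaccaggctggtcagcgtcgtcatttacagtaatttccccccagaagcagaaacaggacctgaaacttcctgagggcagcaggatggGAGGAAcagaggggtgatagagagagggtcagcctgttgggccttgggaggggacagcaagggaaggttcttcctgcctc
C1qc: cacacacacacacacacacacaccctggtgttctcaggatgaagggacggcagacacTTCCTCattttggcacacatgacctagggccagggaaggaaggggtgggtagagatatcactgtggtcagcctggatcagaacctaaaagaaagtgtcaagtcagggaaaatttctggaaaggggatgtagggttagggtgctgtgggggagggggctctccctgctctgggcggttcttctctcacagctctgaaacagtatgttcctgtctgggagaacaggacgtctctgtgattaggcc
C6: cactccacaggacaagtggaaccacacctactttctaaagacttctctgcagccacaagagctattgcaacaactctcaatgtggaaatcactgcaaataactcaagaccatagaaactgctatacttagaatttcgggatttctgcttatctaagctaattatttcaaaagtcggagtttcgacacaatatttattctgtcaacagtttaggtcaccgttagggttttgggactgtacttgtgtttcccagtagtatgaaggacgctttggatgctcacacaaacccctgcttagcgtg
Cfp: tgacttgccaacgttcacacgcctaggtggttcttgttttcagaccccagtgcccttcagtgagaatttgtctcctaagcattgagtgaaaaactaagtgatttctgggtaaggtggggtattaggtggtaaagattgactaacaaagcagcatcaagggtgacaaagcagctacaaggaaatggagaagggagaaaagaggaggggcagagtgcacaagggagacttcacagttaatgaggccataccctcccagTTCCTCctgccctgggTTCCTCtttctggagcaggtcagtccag
Cr2: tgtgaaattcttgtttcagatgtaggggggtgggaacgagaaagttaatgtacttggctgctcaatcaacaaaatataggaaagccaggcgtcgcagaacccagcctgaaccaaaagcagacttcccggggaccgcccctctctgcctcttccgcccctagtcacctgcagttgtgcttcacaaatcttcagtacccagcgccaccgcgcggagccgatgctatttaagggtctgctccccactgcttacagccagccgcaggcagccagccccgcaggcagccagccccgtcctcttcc

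In C1qb a TGCTGA match began 131 bases before the start and a GAGGAA match 30 bases before it. C1qc held GAGGAA on the other strand, 193 bases before the start, and Cfp held it there at 2 places, 6 and 22 bases after the start. C6 and Cr2 held no match to either motif. Over the 8 members with a RefSeq promoter, 3 held GAGGAA, 4 held TGCTGA and 1 held the interferon type element GAAANNGAA, against 28.3%, 19.5% and 8.56% of all 32851 promoters. A match describes letters in this window and is not a binding site by itself.

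**Figure D1:**
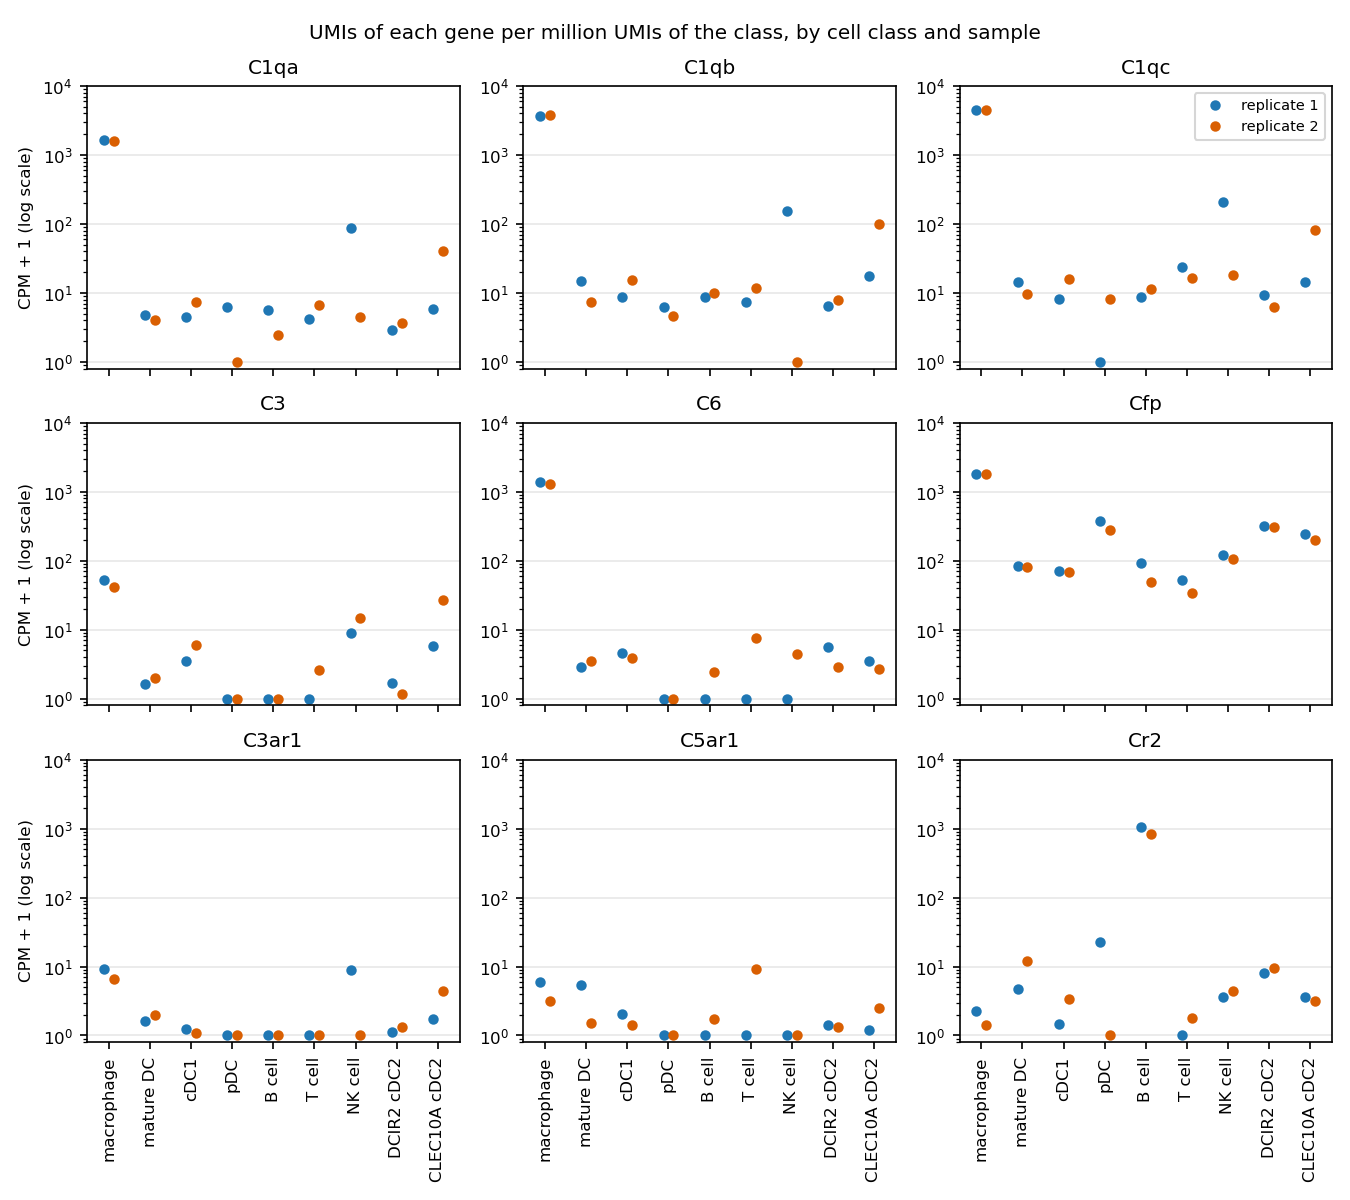
Level of each of the 9 complement genes (1 panel each) by cell class (x axis) and replicate (colour), as CPM + 1 on a log axis, where points at 1 are sums with no UMI. C1qa, C1qb, C1qc, C3, C6 and Cfp are highest in macrophages in both replicates, and Cr2 in B cells.

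Transcripts of the C1q chains were found mainly in macrophages. C1qa was at 1631 CPM in macrophages of replicate 1 and 1609 CPM in replicate 2 (1620 ± 15.5, SD, n = 2). C1qb was at 3613 and 3791 CPM (3702 ± 126) and C1qc at 4470 and 4553 CPM (4512 ± 58.6). Every macrophage of both samples (293 of 293 and 126 of 126) held UMIs of all 3 chains.

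Outside macrophages most sums were near those of T cells, which are not known to make C1q and serve here as the background for RNA free in the cell suspension. C1qa stood at 3.22 and 5.70 CPM in T cells, 3.47 and 6.34 CPM in cDC1s, 1.94 and 2.67 CPM in DCIR2 cDC2s, 3.78 and 3.0 CPM in mature DCs, and 4.71 and 1.47 CPM in B cells. A C1qa UMI was found in 2.44% and 2.52% of T cells at median depths of 6145 and 6490 UMIs. The replicates were unequal in 2 classes. CLEC10A cDC2s had 4.76 CPM of C1qa in replicate 1 and 39.8 CPM in replicate 2. NK cells had 87.5 and 3.40 CPM, and 1 NK cell of replicate 1 held 168 of the 170 C1q UMIs of its class.

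To compare the classes, UMIs were summed per sample and class and fitted over all genes in edgeR (quasi-likelihood test, Benjamini-Hochberg adjusted over 11917 genes). Macrophages were set against conventional DCs, the mean of cDC1s, DCIR2 cDC2s and CLEC10A cDC2s. C1qa was higher in macrophages by 8.10 ± 0.36 on the log2 scale (SE, adjusted p = 1.04e-13), C1qb by 7.96 ± 0.40 (7.57e-13) and C1qc by 8.30 ± 0.39 (2.61e-13). Of the 9 members 8 could be tested (C5ar1 had too few UMIs), and 7 of them were called higher and 0 lower. C6 and C3ar1 met the filter on low counts only with macrophage sums included, the class where they were high. Over all genes tested in this comparison 53.9% were called, 27.9% higher and 26.0% lower, so calls were common. The median log2 difference was 6.001 over the 8 members and -0.02 over all genes.

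The chains kept close to 1 proportion in macrophages. C1qa gave 16.8% of the summed C1q UMIs, C1qb 37.2% and C1qc 46.0% in replicate 1, and 16.2%, 38.1% and 45.7% in replicate 2. These are shares of captured molecules. Per cell, median C1qc was 44.7 and 46.3 UMIs per 10000 UMIs of the cell, with a coefficient of variation (CV) of 0.30 in both samples, against a CV of 0.13 and 0.12 from counting alone. Across the macrophages of a sample the 3 chains rose and fell together, with Spearman correlations from 0.54 to 0.67 between chains (293 and 126 cells, which share a library and its depth, so no p is given).

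C6 had the same class pattern with a wider spread among cells. It stood at 1379 and 1294 CPM in macrophages (1337 ± 59.7, SD, n = 2). No sum of another class was above 6.52 CPM, and C6 was at 0 in pDCs of both samples, where 0 of 13 and 0 of 19 cells allow a share of up to 23.1% and 15.8% (3 counts of the total, the limit used for a count of 0). C6 was higher in macrophages than in conventional DCs by 8.94 ± 0.17 on the log2 scale (edgeR quasi-likelihood, adjusted p = 1.31e-18).

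C6 was not found in every macrophage. A C6 UMI was present in 88.4% of macrophages of replicate 1 (95% exact interval 84.2 to 91.8) and 84.9% of replicate 2 (77.5 to 90.7), against 0% and 1.89% of T cells. Such intervals cover counting error only. Median C6 was 13.5 and 13.9 UMIs per 10000, the CV 0.66 and 0.77, and the CV from counting alone 0.23 in both. Spearman correlations between C6 and the C1q chains across macrophages ran from 0.07 to 0.28. The 34 and 19 macrophages with no C6 UMI had median depths of 18509 and 19848 UMIs, and those with C6 19563 and 17926 UMIs. The cells with no C6 UMI had 1608 and 1288 CPM of C1qa, against 1634 and 1670 CPM in the cells with C6.

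Other macrophage genes were looked at after their values were seen, and not all of them are printed. Timd4, a phosphatidylserine receptor of resident macrophages, was found in 32.4% and 31.6% of macrophages with no C6 UMI and in 75.7% and 80.4% of those with C6. Its level did not keep that direction, at 107 and 286 CPM in the cells with no C6 UMI and 197 and 215 CPM in those with C6. Spic, the regulator of red pulp macrophages, was found in 33 of 34 and 19 of 19 cells with no C6 UMI and in 256 of 259 and 106 of 107 cells with C6. Cx3cr1, the fractalkine receptor, was at 140 and 156 CPM in the cells with no C6 UMI and 9.19 and 5.58 CPM in those with C6. It rested on few cells, 4 of 34 and 1 of 19 with no C6 UMI. Cd5l was at 630 and 522 CPM in the cells with no C6 UMI and 850 and 733 CPM in those with C6. Hmox1 and Apoe changed direction between the replicates. Hmox1 was at 4432 and 5678 CPM with no C6 UMI against 5169 and 5089 CPM, and Apoe at 4534 and 3182 CPM against 3239 and 3315 CPM. These cells were split by C6 itself, so the values are a description with no test.

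**Figure D2:**
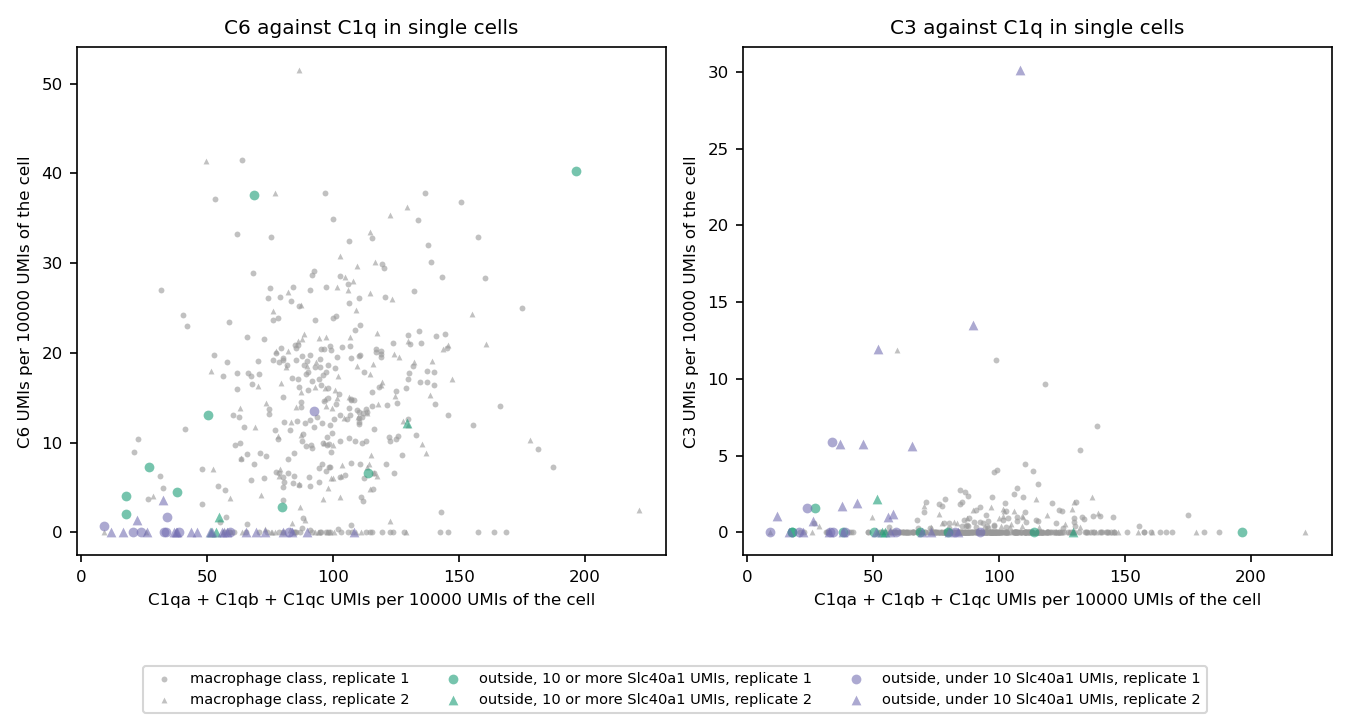
C6 (left) and C3 (right) against summed C1q in single cells, all as UMIs per 10000 UMIs of the cell, for macrophages (grey) and for cells outside that class with at least 20 C1q UMIs (coloured by Slc40a1, circles replicate 1, triangles replicate 2). A row of macrophages lies at 0 C6 across most of the range of C1q, and the highest C3 values belong to cells outside the class with under 10 Slc40a1 UMIs.

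Properdin (Cfp) was found in every class. It stood at 1782 and 1809 CPM in macrophages (1796 ± 19.5, SD, n = 2), in every cell. pDCs followed with 378 and 274 CPM, DCIR2 cDC2s with 320 and 309 CPM, and CLEC10A cDC2s with 242 and 199 CPM. pDCs and DCIR2 cDC2s overlapped, while the replicates of DCIR2 cDC2s stood above those of CLEC10A cDC2s. Lower down were NK cells (122 and 105 CPM), mature DCs (83.2 and 81.5 CPM), B cells (92.6 and 48.7 CPM), cDC1s (70.9 and 66.7 CPM) and T cells (51.5 and 33.4 CPM), and B cells overlapped with mature DCs, cDC1s and T cells. The place of NK cells rests on few cells, since 1 cell held 43.5% and 35.5% of their 46 and 31 Cfp UMIs. Without cells that met more than 1 gate, NK cells kept 29 and 7 Cfp UMIs.

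The shares of cells were compared at equal depth. Thinned to 3000 UMIs per cell, 98.3% and 99.2% of macrophages, 51.8% and 52.3% of DCIR2 cDC2s, 42.9% and 40.4% of CLEC10A cDC2s and 14.9% and 16.3% of cDC1s still held a Cfp UMI, against 9.76% and 6.92% of T cells. Without thinning every macrophage held a Cfp UMI, and the shares were 87.1% and 83.8% for DCIR2 cDC2s, 73.3% and 66.2% for CLEC10A cDC2s, 51.3% and 55.9% for cDC1s and 14.6% and 10.7% for T cells.

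Cfp was 11.3 times higher in macrophages than in conventional DCs (log2 difference 3.50 ± 0.12, edgeR quasi-likelihood, adjusted p = 2.61e-15). It was lower in cDC1s than in the mean of both cDC2 classes, by 1.79 ± 0.16 on the log2 scale (log2 difference -1.79, adjusted p = 1.41e-08). In that comparison 2 of 8 members tested were called, both lower, where 35.8% of all genes were called, 18.2% lower and 17.5% higher. Against conventional DCs, the Cfp difference was -1.02 ± 0.17 in mature DCs (adjusted p = 6.52e-05) and -1.55 ± 0.19 in B cells (adjusted p = 1.85e-06). The difference between CLEC10A and DCIR2 cDC2s, -0.45 ± 0.17, was not called (adjusted p = 0.134). All comparisons with conventional DCs share the same conventional DC sums.

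pDCs had Cfp higher than conventional DCs by 0.71 ± 0.19 on the log2 scale (edgeR quasi-likelihood, adjusted p = 0.0197), the only call among 8 members tested, where 10.3% of all genes were called, 4.71% higher and 5.63% lower. With the cells that met more than 1 gate left out, the difference was -0.19 (adjusted p = 0.793). That left 4 and 7 pDCs with 11 and 20 Cfp UMIs, too few to settle the direction.

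**Figure D3:**
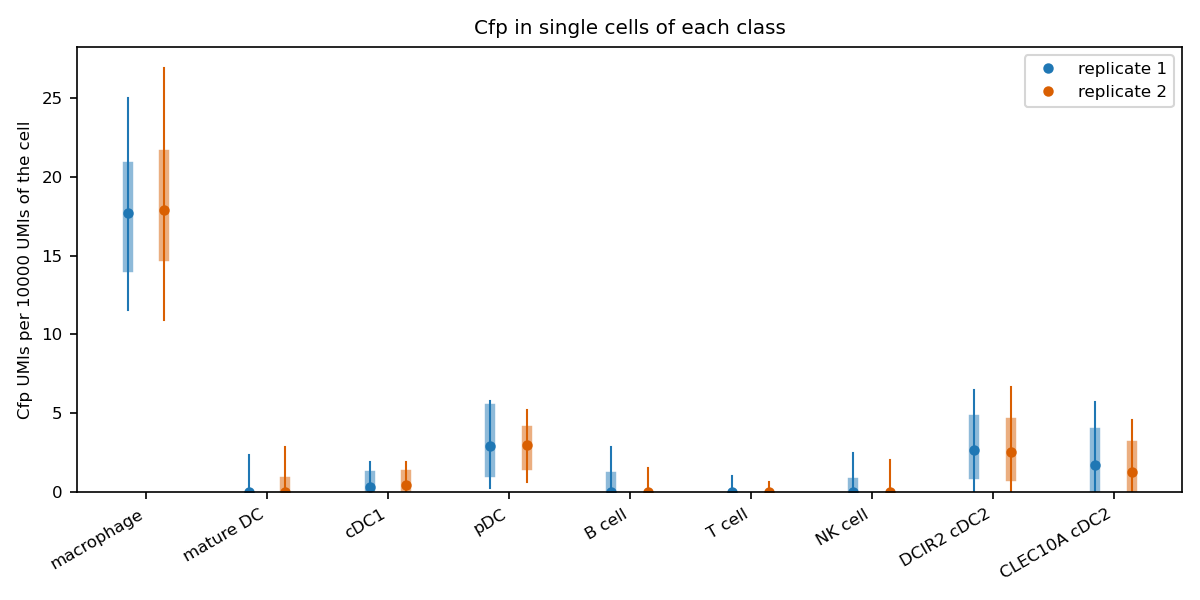
Cfp per cell (UMIs per 10000 UMIs of the cell) in each class and replicate, with the median as a point, the middle 50% of cells as a thick bar and the 10th to 90th percentiles as a thin line. Macrophages have medians of 17.7 and 17.9, and the medians of mature DCs, B cells, T cells and NK cells are at 0.

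C3, the central component, was at 50.8 and 41.3 CPM in macrophages (46.0 ± 6.74, SD, n = 2), in 26.3% and 25.4% of the cells, against 0% and 1.26% of T cells (0 of 41 T cells in replicate 1 allow up to 7.32% by the limit of 3 counts). Macrophages were deeper than T cells, at medians of 19313 and 18023 UMIs against 6145 and 6490. Thinned to 3000 UMIs per cell, 9.2% and 7.1% of macrophages still held a C3 UMI, against 0% and 1.26% of T cells. CLEC10A cDC2s had 4.76 and 25.6 CPM of C3, cDC1s 2.49 and 4.90 CPM, and DCIR2 cDC2s 0.69 and 0.17 CPM. No C3 UMI was found in B cells or pDCs of either sample. C3 was higher in macrophages than in conventional DCs by 4.04 ± 0.41 on the log2 scale (edgeR quasi-likelihood, adjusted p = 1.11e-07). The C3 sums rested on few cells. In cDC1s 5 and 6 cells held all C3 UMIs, with 63.6% and 82.8% of them in 1 cell, and in macrophages of replicate 2 a single cell held 37.1%.

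CLEC10A cDC2s differed from DCIR2 cDC2s in C3 and in C1q. The 2 gates do not part separate populations, since 209 of 556 and 156 of 456 DCIR2 cDC2s also met the CLEC10A gate. C3 was higher in CLEC10A cDC2s by 5.0 ± 0.78 on the log2 scale (edgeR quasi-likelihood, adjusted p = 0.000664), C1qa by 3.30 ± 0.72 (0.00804), C1qb by 3.25 ± 0.65 (0.00375) and C1qc by 2.79 ± 0.63 (0.00915). These were 4 of 8 members tested, all higher, where 5.87% of all genes were called, 3.73% higher and 2.14% lower. The C1q levels rested on a few cells of replicate 2, in which 9 of 408 CLEC10A cDC2s held 90.9% of the 1026 C1q UMIs. With replicate 2 left out the differences were 1.13 for C1qa, 1.51 for C1qb, 0.68 for C1qc and 2.11 for C3, with no test possible. With all cells of at least 20 C1q UMIs outside the macrophage class left out, an alternative added after seeing the data, C3 (3.96, edgeR adjusted p = 0.000965) and C1qb (1.15, 0.00733) were still called, while C1qa (0.92, 0.188) and C1qc (0.54, 0.328) were not. In DESeq2 C3 was the only call, with adjusted p of 0.0600, 0.0950 and 0.0505 for C1qa, C1qb and C1qc.

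The cells outside the macrophage class that carried at least 20 C1q UMIs, chosen here by their values, were divided by Slc40a1, which encodes the iron exporter ferroportin. There were 13 cells with at least 10 Slc40a1 UMIs, and in these C6 gave 17.8 UMIs per 100 C1q UMIs in replicate 1 (9 of 9 cells with C6) and 3.13 in replicate 2 (2 of 4 cells), against 14.2 and 13.01 in the macrophage class. The other 32 cells had under 10 Slc40a1 UMIs, and C6 gave 1.82 (3 of 10 cells) and 0.31 UMIs (2 of 22 cells) per 100 C1q UMIs. C3 in these 32 cells differed widely between the replicates, at 79.2 CPM in replicate 1 (2 of 10 cells) and 428 CPM in replicate 2 (12 of 22 cells), against 50.8 and 41.3 CPM in the macrophage class. Cx3cr1, the fractalkine receptor, was at 620 and 768 CPM against 25.9 CPM in the pooled macrophage class, and Ccr2, a chemokine receptor of monocytes, was at 271 and 428 CPM. With both replicates pooled, C1qa, C1qb and C1qc gave 18.2%, 42.2% and 39.6% of their C1q UMIs, against 16.6%, 37.5% and 45.9% in the macrophage class. Over both kinds and replicates 1 and 2, 13 and 15 cells met no gate, 1 and 9 were CLEC10A cDC2s and 3 and 2 were cDC1s. These values of chosen cells have no test, and the cells are given no name.

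The receptors for the cleavage fragments were found at low levels. C3ar1 was at 8.14 and 5.53 CPM in macrophages, in 10.9% (95% exact interval 7.59 to 15.1) and 7.14% (3.32 to 13.1) of cells, while 0 of 41 and 0 of 159 T cells held a UMI, which allows up to 7.32% and 1.89% by the limit of 3 counts and up to 8.60% and 2.29% by the exact interval. Macrophages were also deeper than T cells. Thinned to 3000 UMIs per cell, 1.71% and 0% of macrophages still held a C3ar1 UMI, against 0% and 0% of T cells. At that depth these counts are too few to tell macrophages from T cells. C3ar1 was higher in macrophages than in conventional DCs by 3.99 ± 0.58 on the log2 scale (edgeR quasi-likelihood, adjusted p = 1.40e-05). It held 45 and 13 UMIs in macrophages and from 1 to 16 in the conventional DC sums. The gene entered the test with the help of the class where it was high, which limits what this call adds. NK cells of replicate 1 reached 7.95 CPM from 1 cell, so macrophages did not stand above every other class. C5ar1 was at 4.88 and 2.13 CPM in macrophages and at 4.41 and 0.50 CPM in mature DCs, and its highest sum, 8.14 CPM in T cells of replicate 2, came from 10 UMIs of 1 cell. It was not tested in any comparison, and no order of the classes can be read for it at this depth.

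Cr2, the receptor for C3 fragments, was found mainly in B cells. It stood at 1045 and 847 CPM in B cells (946 ± 140, SD, n = 2), in 67.7% (95% exact interval 54.9 to 78.8) and 73.3% (66.0 to 79.7) of cells, at median depths of 7677 and 6982 UMIs. In T cells it was at 0 and 0.81 CPM and in macrophages at 1.27 and 0.43 CPM. B cells exceeded conventional DCs by 8.12 ± 0.23 on the log2 scale (edgeR quasi-likelihood, adjusted p = 1.22e-15). With Cfp, 2 of 8 members tested were called in this comparison, 1 higher and 1 lower, where 36.2% of all genes were called, 15.2% higher and 21.0% lower.

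Cr2 also differed among the DCs at far lower levels. DCIR2 cDC2s had 7.05 and 8.66 CPM, spread over 5.04% and 5.70% of cells, CLEC10A cDC2s 2.56 and 2.13 CPM, and cDC1s 0.45 and 2.37 CPM. Between cDC1s and cDC2s the log2 difference was -1.49 ± 0.47 (edgeR quasi-likelihood, adjusted p = 0.0171). The difference between CLEC10A and DCIR2 cDC2s, -1.65 ± 0.50, was not called (adjusted p = 0.0597), but was called with the sample as a replicate block (adjusted p = 0.0488) and without cells that met more than 1 gate (-1.44, adjusted p = 0.0289). Mature DCs had 3.78 and 11 CPM, and 20 of the 22 UMIs of replicate 2 were in 1 cell. They exceeded conventional DCs by 1.41 ± 0.53 (edgeR adjusted p = 0.0478), a call that was lost with the replicate block (0.0550) and without cells that met more than 1 gate (0.36, adjusted p = 0.716). In that comparison 2 of 8 members were called, where 34.0% of all genes were called, 17.1% higher and 16.9% lower. In macrophages the Cr2 difference, -1.42 ± 0.71, was not called (adjusted p = 0.1005).

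**Figure D4:**
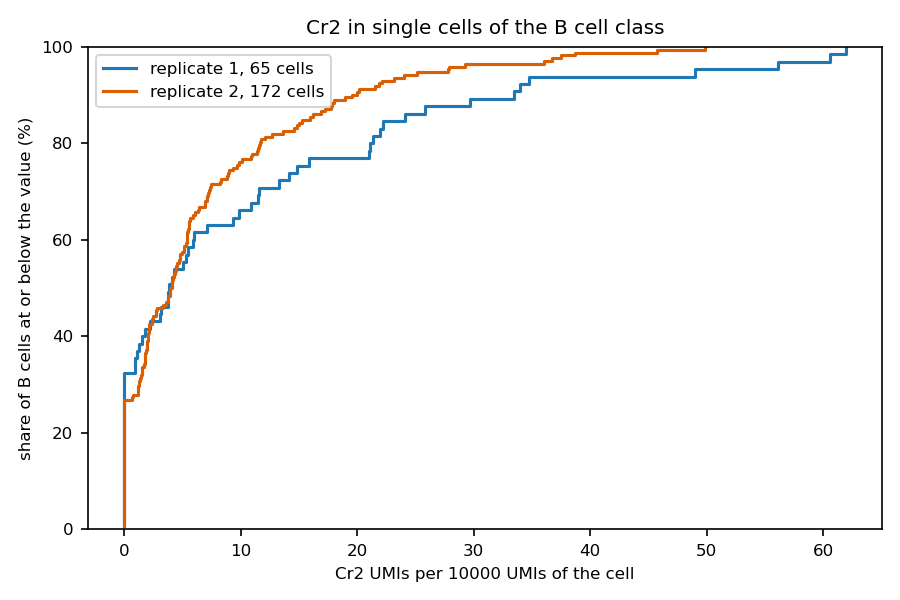
Cumulative share of B cells (y axis, percent) at or below each level of Cr2 (x axis, UMIs per 10000 UMIs of the cell), 1 line per replicate. The medians are 3.90 and 4.03, with 21 and 46 cells at 0 and the highest cells at 62.0 and 49.9.

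Within B cells Cr2 was spread widely, with a CV of 1.43 and 1.33 against 0.35 and 0.44 from counting alone. B cells were then split by genes known to be higher in marginal zone B cells, as a description made after the values were seen. Cr2 was at 2323 and 1753 CPM in the 16 and 22 B cells with a UMI of Myof, and at 405 and 602 CPM in the others. It was at 1612 and 1415 CPM with Cd9 and 707 and 631 CPM without, and at 1689 and 1141 CPM with Cd1d1, which presents lipids, and 628 and 741 CPM without. Splitting by Fcer2a (CD23), a follicular B cell marker, gave 1053 and 704 CPM with and 1041 and 1177 CPM without, so the replicates overlapped in level. The cells with Myof were also deeper, at medians of 13516 and 12747 UMIs against 6962 and 6501. The same held for Cd9 (12106 and 11289 against 6665 and 6342.5) and Cd1d1 (11753 and 9887 against 7113.5 and 6417), and the part of depth was not tested. The share of cells with a Cr2 UMI was 66.7% and 81.2% with Cd9 and 68.1% and 71.4% without. Plasma cell markers summed to 7228 CPM in the B cell class of replicate 1 and 1315 CPM in replicate 2, and their part was not tested.

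The genes by which the study picked its macrophages and cDC1s, Siglec1 and Cd207, were used to split each class at 1 UMI. The study did not use the class gates given here, so the cells split need not be those it picked. Siglec1+ cells outside the macrophage gate were left out. Neither split gave a call among the complement genes in the main fit, which did not pair the sums of a sample. Of the macrophages 112 and 56 held a Siglec1 UMI and 181 and 70 did not. The cells with Siglec1 were deeper, at medians of 20859 and 19019 UMIs against 17903 and 17848. A cell with no UMI may hold a transcript that was missed, and the part of depth was not tested. C1qa was at 1660 and 1552 CPM in Siglec1+ macrophages and 1610 and 1659 CPM in the others, and Cfp at 1781 and 1730 CPM against 1782 and 1879 CPM. C6 was at 1527 and 1486 CPM against 1273 and 1126 CPM, and C3 at 34.3 and 21.9 CPM against 62.6 and 58.3 CPM, with no overlap of the replicates. Neither passed the correction over all genes. C6 had a log2 difference of 0.32 ± 0.09 (edgeR quasi-likelihood, unadjusted p = 0.00455, adjusted p = 0.997) and C3 of -1.05 ± 0.23 (unadjusted p = 0.00051, adjusted p = 0.483). Of 7 members tested 0 were called in edgeR and 0 in DESeq2, and 2 had an unadjusted p under 0.05, where 0.0211% of 9469 genes were called.

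Langerin was found in 116 and 113 cDC1s, with Cfp at 62.5 and 60.5 CPM, and not in the other 568 and 458, with Cfp at 72.8 and 68.4 CPM. The cells with Langerin were deeper too, at medians of 22445 and 23444 UMIs against 19023.5 and 20216, and the part of depth was not tested. C3 stood at 0.41 and 0.38 CPM with Langerin against 2.96 and 6.18 CPM without it, a log2 difference of -3.37 ± 0.84 (edgeR quasi-likelihood, unadjusted p = 0.00289, adjusted p = 0.125) that was called with the replicate block (adjusted p = 0.00138). The C3 UMIs came from the 5 and 6 cells described above. Of 6 members tested 0 were called in edgeR and 0 in DESeq2, and 1 had an unadjusted p under 0.05, where 0.904% of 11060 genes were called.

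**Figure D5:**
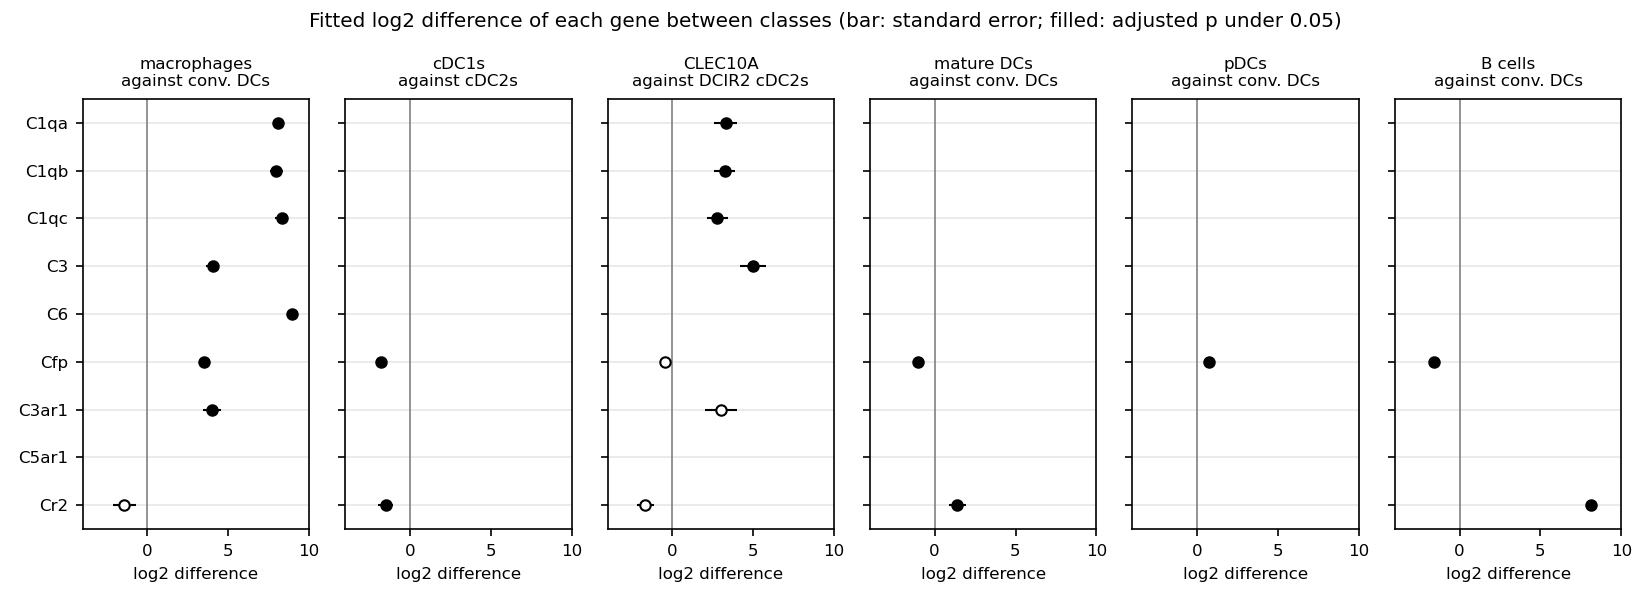
Log2 differences of members in the 6 comparisons between classes, with bars of 1 SE, filled where the adjusted p is under 0.05. Members with an unadjusted p of 0.05 or more are drawn for macrophages only, where C1qa, C1qb, C1qc and C6 lie between 7.96 and 8.94. Cr2 lies at 8.12 in B cells.

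The other complement genes were read from a list of 45, of which 43 were measured and 9 reached 50 CPM in a class in both samples. In macrophages 13 of 19 tested were higher than in conventional DCs and 3 lower, where 27.9% and 26.0% of all genes were. Fcna, a ficolin that starts the lectin pathway, was at 3033 and 2799 CPM in macrophages and at most at 6.44 CPM in other classes (log2 difference 9.28 ± 0.14, edgeR quasi-likelihood, adjusted p = 1.34e-19), although an antisense gene, Fcnaos, overlaps it. C2, a protease of the classical and lectin convertase, was at 120 and 129 CPM (6.80 ± 0.23, adjusted p = 3.61e-15). Lrp1, a scavenger receptor that partners cell surface calreticulin in uptake, was at 499 and 468 CPM (4.96 ± 0.13, adjusted p = 3.83e-17). Cd55, which dissociates C3 convertases, was at 45.6 and 63.4 CPM in macrophages and 242 and 485 CPM in B cells, with log2 differences from conventional DCs of 5.62 ± 0.31 and 8.13 ± 0.27 (edgeR adjusted p = 7.70e-12 and 2.49e-14).

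Itgam and Itgax, integrin chains of the C3 fragment receptors on phagocytes, were lower in macrophages than in the mean of conventional DCs. The log2 difference was -2.55 ± 0.29 for Itgam (edgeR quasi-likelihood, adjusted p = 2.41e-07) and -2.51 ± 0.13 for Itgax (adjusted p = 1.75e-12), while their partner Itgb2 was higher by 0.65 ± 0.11 (adjusted p = 2.68e-05). Itgam in macrophages (6.33 and 11.1 CPM) overlapped with cDC1s (8.97 and 5.92 CPM). It stood at 129 and 107 CPM in DCIR2 cDC2s and 150 and 125 CPM in CLEC10A cDC2s. Itgax encodes CD11c, on which the cells were enriched, and the part of this was not tested. In cDC1s against cDC2s 2 of 19 genes were higher and 7 lower (17.5% and 18.2% of all genes), among them Itgam (-3.94 ± 0.25, adjusted p = 9.59e-11) and Lrp1 (-2.71 ± 0.20, adjusted p = 1.08e-09). In CLEC10A against DCIR2 cDC2s 3 of 19 were higher and 0 lower (3.73% and 2.14% of all genes), Lrp1 among the 3 (1.59 ± 0.19, adjusted p = 2.79e-05). Of 19 genes mature DCs had 2 higher and 6 lower (17.1% and 16.9% of all genes), pDCs 2 and 1 (4.71% and 5.63%), and B cells 4 and 5 (15.2% and 21.0%). The counts in B cells lie near these shares. The 6 lower genes of mature DCs stand above their share, which was not tested. Between Siglec1+ and other macrophages 0 of 15 were called in edgeR and 0 in DESeq2, with 2 at an unadjusted p under 0.05, and between Langerin+ and other cDC1s 0 of 11 in edgeR and 0 in DESeq2, with 3.

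Each member with at least 50 CPM in a class was set beside the genes with the most similar levels (Pearson r of log2(CPM + 10) over the 18 sums of class and sample, across 5817 genes). The genes nearest to C1qa included C1qb (r = 0.993) and C1qc (0.988). C6 was nearest to Adrb1 (0.998), Slco2b1 (0.997) and Vstm4 (0.997). Cfp was nearest to Morf4l1 (0.939), Plxnb2 (0.938) and Csf1r (0.931), the receptor for the macrophage growth factor. Cr2 was nearest to Gm30211 (0.985), Bcar3 (0.984) and Mzb1 (0.981). The 18 sums come from 2 libraries, so these values are a description with no p.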

How the data were processed

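Libraries came from bead-enriched CD11c+ spleen cells, pooled under sample tags and captured on the BD Rhapsody system. The deposited files hold UMI counts per cell and gene, which the authors obtained with the BD Rhapsody WTA pipeline, with UMIs corrected for sequencing errors (RSEC). Library sums were 46953398 and 43137746 UMIs for 27032 genes. Other tags of the run are not analysed here.

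Cells with under 200 genes were removed, as were, per sample, cells far from the mean in genes, UMIs or the share of mitochondrial UMIs. The limit was 3 median absolute deviations (scaled by 1.4826). This follows the study's filter, except that the study names the number of mitochondrial genes. Doublets were not removed, and 324 and 286 cells met more than 1 gate. UMIs were summed per sample and class, and 18 sums were fitted in edgeR 4.0.16 (R 4.3.3, TMM, filterByExpr, quasi-likelihood test) with p-values adjusted after Benjamini and Hochberg over every gene tested (threshold 0.05), without the 14 gate genes. The Siglec1 and Langerin splits were fitted on 4 sums each. Alternatives were DESeq2 1.42.0, other size factors, no filters, other gates and the sample as a block. Same-numbered sums come from the same sample, and their deviations from class means correlated at -0.05 to 0.13 over 36 class pairs. These correlations were not computed for the Siglec1 and Langerin splits, whose main fits were also unpaired. The fits were tested on simulated data. Replicates differed by more than sampling noise in every class.

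The named genes were all members, and of the other complement list those called with at least 50 CPM in a class in both samples (at most 10 per comparison). The members and lists were chosen with earlier results of these data known. Gene positions are from GENCODE M21 (GRCm38). Among the genes with the most similar levels, 1 is not reported here.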

Additional observations from a re-analysis of the deposited data

How the results depend on the processing

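Of 66 recomputed counts of members called, 52 were within 1.5 times the reported count. With no filter on low counts, 4 were called in cDC1s against cDC2s, 7 in CLEC10A against DCIR2 cDC2s, 4 in mature DCs, 6 in B cells and 1 each in the Siglec1 and Langerin splits. Over all genes, in the same order, 4567, 998, 4604 and 4635 of 24517 were called, and 35 of 18471 and 449 of 21359 in the splits. Without the C1q-rich cells outside macrophages, 4 were called in cDC1s against cDC2s and 2 in CLEC10A against DCIR2 cDC2s, where DESeq2 called 1. Over all genes, 4370 and 668 of 11976 were called without these cells, and 864 of 11917 in DESeq2. Without cells of more than 1 gate, 1 was called in mature DCs and 0 in pDCs in edgeR, where Cfp turned to -0.19 (adjusted p = 0.793). The pDC class then held 4 and 7 cells. Over all genes, 3823 and 821 of 11470 were called in these comparisons. With the replicate block 1 was called in mature DCs and 1 in the Langerin split, and it changed no call of a member other than those given in the text. Over all genes the block gave 4149 calls of 11917 in mature DCs and 658 of 11060 in the Langerin split. With no filter on deviations 4 were called in B cells, with C1qc (1.89) and C3 (1.87) higher, while with no filter on low counts both were called lower (-1.01 and -6.44). Over all genes, 4401 of 12222 were called in B cells with no filter on deviations. Cr2 in macrophages turned to 0.41 (edgeR, adjusted p = 0.312) with no filter on deviations. The causes were not tested. Leaving out a replicate leaves no residual degrees of freedom, so only values were recomputed. Levels of a few CPM rest on few UMIs, and differences at that level may not be detectable at this depth.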

Other observations

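The 616 and 605 cells that met no gate had 297 and 292 CPM of Cfp, 10.8 and 26.9 CPM of C3, 14.0 and 5.38 CPM of C6 and 3.67 and 6.53 CPM of Cr2. They held 817 and 1543 C1q UMIs, of which 77.2% and 86.3% were in 13 and 15 cells. C5ar1 was at 1.67 and 5.71 CPM there, in 0.81% and 2.31% of cells.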
